A study of Mus musculus with 24 samples.

Results

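The question addressed here is whether the transcript difference between Ift20-targeted and control retinal pigment epithelium (RPE) was the same at postnatal day 29 (P29) and at postnatal day 11 (P11). It used the 16 libraries of those ages, out of 24 in the study, which also holds 8 libraries of 3 months (3M). Mutants carried a floxed Ift20 gene with the Dct-Cre driver, and controls also carried Cre, so an effect of the driver alone is shared by both genotypes. The 4 groups were mutants at P29, controls at P29, mutants at P11 and controls at P11, with 4 libraries of isolated mouse RPE cells in each. For every gene the interaction value is the mutant minus control difference at P29 minus that at P11, on the log2 scale. It equals the change of mutants from P11 to P29 minus that of controls, and a positive value means that mutants stood higher against their controls at P29 than at P11.

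The product of Ift20 belongs to the intraflagellar transport machinery, which carries cargo along the axoneme of the primary cilium and is needed to build that organelle. The RPE is a pigmented monolayer behind the retina that regenerates visual chromophore, takes up shed photoreceptor outer segments and moves ions and nutrients between choroid and retina. Its cells carry a primary cilium as they mature, and in mice maturation goes on through the weeks after birth, while photoreceptors build their outer segments.

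Several features limit these groups as a model. Dct-Cre acts in cells that express the melanin enzyme gene Dct, which includes other pigment cells, the strain background was mixed, and sex was not collected. Replicates are numbered as biological in the labels, but whether a library is 1 animal or several is not said, and RNA is described there as mixed at extraction, so the p-values rest on differences among libraries that may be technical repeats. Libraries held between 1513440 and 2889946 counts in genes, at which 3 counts are worth 1.04 to 1.98 CPM (counts scaled to a common library size). Of the female-specific transcript Xist, mutant P29 libraries held 410 to 494 CPM, control P29 libraries 138 to 153, mutant P11 libraries 207 to 223 and control P11 libraries 80.01 to 140. Of the Y-linked gene Ddx3y, mutant P29 libraries held 37.3 to 45.5 CPM, control P29 libraries 153 to 182, mutant P11 libraries 61.7 to 80.8 and control P11 libraries 72.8 to 102. Every one of the 16 libraries held both transcripts, so each held RNA of both sexes and hence of more than 1 animal. At P29 the genotypes did not overlap in either transcript, and at P11 they did not overlap in Xist but did in Ddx3y. With the mean level of 5 Y-linked genes as a covariate 31 interaction calls were left, but 94.6% of the variance of that score lay between groups, so the sex composition and the groups cannot be told apart. For the same reason, a call kept or lost with that score does not show whether sex composition had a part in it. Mitochondrial transcripts took 5.84% of counts in mutants and 5.05% in controls at P29, and 10.8% in mutants and 7.81% in controls at P11.

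Of 12303 genes tested, 323 (2.63%) had an interaction at an adjusted p under 0.05 in edgeR's quasi-likelihood test, 178 of them with a positive value (1.45%) and 145 with a negative value (1.18%). These shares are for the adjusted p. Counts at an unadjusted p, given below for some lists, come without the share over all genes, which would be larger than 2.63%. The lens, endothelial, myelin, immediate early and melanin lists had members among the 178 and none among the 145, and the clock list had members among the 145 alone. Mutants differed from controls in 350 genes at P29 (2.84%), with 201 higher (1.63%) and 149 lower (1.21%), and in 853 genes at P11 (6.93%), with 401 higher (3.26%) and 452 lower (3.67%). Of the 1083 genes called at either age 803 had no interaction call. Across all tested genes the genotype difference at P29 and that at P11 had a Pearson correlation of 0.0566 and a Spearman correlation of 0.0709; genes are not independent replicates.

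Most of the 323 genes had a genotype call at P11 and none at P29. Called at P11 alone were 187 of them, 91 with a positive and 96 with a negative interaction value, and called at P29 alone were 63, of which 45 were positive and 18 negative. A further 43 were called at neither age, and 6 were called in the same direction at both. Opposite calls at the 2 ages were made for 24 genes, 18 higher at P29 and lower at P11, and 6 lower at P29 and higher at P11. In all 120 genes were called at both ages, of which the other 96 pointed the same way.

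From P11 to P29 mutants changed in 3895 genes (31.7%) and controls in 3943 (32%). Of the 178 genes with a positive interaction value, 27 rose in mutants and fell in controls, 46 rose in mutants without a call in controls, and 51 fell in controls without a call in mutants. Of the 145 with a negative value, 57 fell in mutants without a call in controls, 46 rose in controls without a call in mutants, and 8 fell in mutants and rose in controls. In the plot of both genotype differences the 2 sets lie on either side of the diagonal by definition.

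**Figure D1:**
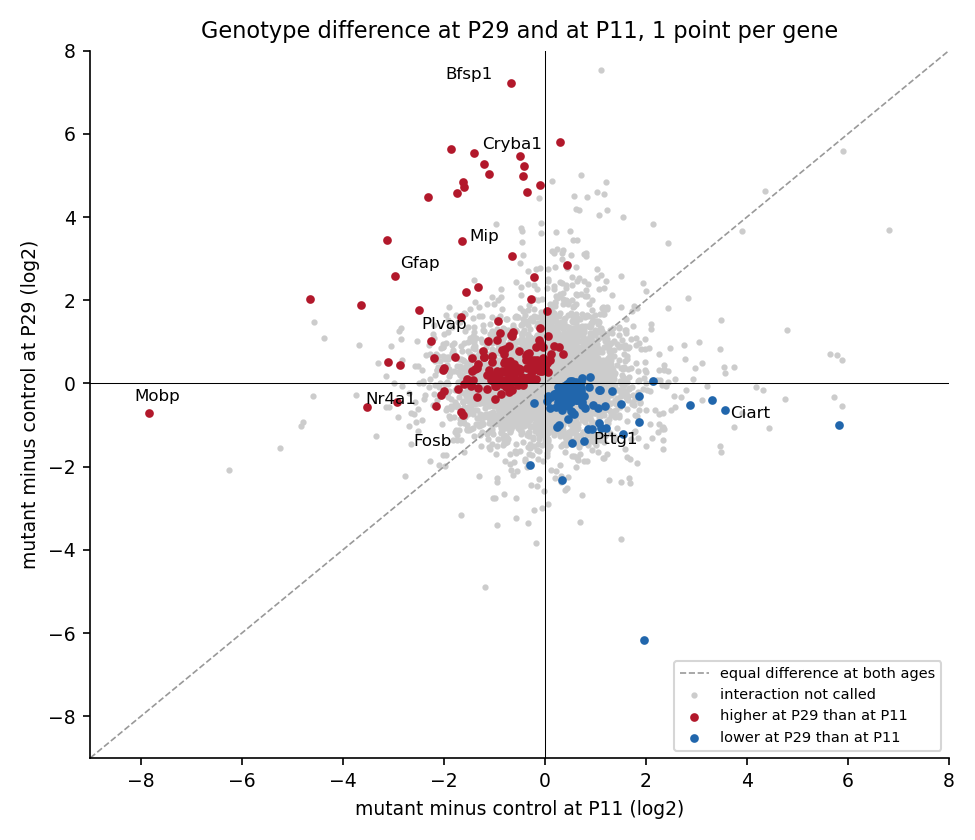
Mutant minus control difference at P29 (vertical axis, log2) against that at P11 (horizontal axis, log2), 1 point for each tested gene, with genes called for the interaction in red (positive) and blue (negative) and 1 gene beyond the axes. By definition red points lie above the dashed diagonal of equal differences and blue points below it. Crystallin genes such as Cryba1, near 5.54 at P29, lead the red points.

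Lens genes gave the largest positive values. The lens list names 21 genes for crystallins, the soluble proteins that fill lens fibre cells, and for fibre membrane and cytoskeleton proteins. Of its 17 tested members 15 had a positive interaction and none a negative one, with a median of 6.31 against 0.02 over all genes. At P29 16 of the 17 were higher in mutants (median 4.84), and at P11 5 were lower and none higher (median -1.10). The 2 not called for the interaction had an unadjusted p under 0.05 and a positive value.

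Cryba1, a beta crystallin, held 170, 225, 191 and 196 CPM in mutants at P29, against 4.998, 5.98, 3.32 and 1.98 CPM in controls at P29. At P11 it held 7.37, 7.41, 12.5 and 6.09 CPM in mutants, against 15.4, 21.7, 31.6 and 21.3 CPM in controls. The groups did not overlap at either age, and the order of the genotypes was opposite. The difference was 5.54 at P29 (SE 0.28) and -1.40 at P11 (SE 0.28), which gives an interaction of 6.94 (SE 0.40, edgeR adjusted p = 4.64e-27). Cryaa, the alpha crystallin chaperone, held 247, 191, 184 and 183 CPM in mutants and 1.78, 2.79, 9.22 and 11.4 CPM in controls at P29. At P11 its mutants, at 3.44, 11.8, 6.70 and 12.6 CPM, overlapped controls, at 20.4, 19.3, 10.8 and 23.9 CPM. Its interaction was 6.13 (SE 0.49, edgeR adjusted p = 4.87e-12), and the P11 difference alone missed the threshold (-1.10, SE 0.35, adjusted p = 0.0514).

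Of the next lens members Cryba2, Crygs and Mip were called higher at P29 and lower at P11, and Crygc was called at P29 alone. The beta crystallin Cryba2 averaged 56.6 CPM ± 4.53 in mutants and 1.03 ± 0.928 in controls at P29 (SD, n = 4 each), and 2.43 ± 0.454 in mutants and 8.998 ± 5.39 in controls at P11, an interaction of 7.51 (SE 0.73). Crygs, a crystallin of the cortical fibres, averaged 97.2 CPM ± 12.7 in mutants and 3.47 ± 2.15 in controls at P29, and 3.17 ± 1.56 in mutants and 10.3 ± 7.58 in controls at P11 (interaction 6.45, SE 0.60). Crygc, at 119 CPM ± 18.8 in mutants and 3.20 ± 1.47 in controls at P29, is 1 of a set of near-identical gamma crystallin genes. Reads aligned to several places were listed apart from genes, so its count may lack shared reads and is uncertain. Mip, the water channel of lens fibres, averaged 72.7 CPM ± 13.3 in mutants and 6.75 ± 2.41 in controls at P29, and 8.07 ± 3.12 in mutants and 25.1 ± 12.4 in controls at P11 (interaction 5.06, SE 0.52). Cryab, a crystallin that the RPE and glia also express and that is not on the lens list, was called in the same directions, with a smaller interaction of 1.23 (SE 0.13, edgeR adjusted p = 1.42e-11): 375 CPM ± 35.8 in mutants and 256 ± 18.4 in controls at P29, and 118 ± 23.4 in mutants and 189 ± 8.87 in controls at P11. Mip and Cryab each overlap an exon of a gene on the other strand (Gm26847 and Hspb2).

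The summed level of all 21 lens genes was 1320 to 1392 CPM in mutants and 53.5 to 75.3 CPM in controls at P29, and 72.4 to 93.8 CPM in mutants and 161 to 197 CPM in controls at P11. Control P29 libraries had no count of Crygf or Lgsn, P11 mutants none of Birc7 or Gja3, and P11 controls none of Birc7, Gja3 or Lgsn. In bulk RNA, fewer cells of a type and less RNA per cell cannot be told apart. At 3M Cryba1 had 4 counts over all mutants and 0 over all controls, and no lens gene was called there by edgeR, DESeq2 or voom, while 3 had an unadjusted p under 0.05. With the Y-linked score 7 of the 15 calls were kept, among them Cryba1, Cryba2, Crygs and Cryaa, and leaving out 1 library gave 13 to 15 calls. The part of lens tissue in the P29 mutant libraries was not tested.

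The promoters of Cryaa and Cryba1 are shown because both genes had a positive interaction and their windows hold the same Maf recognition core. The windows run from 250 bases before to 50 bases after the RefSeq start in GRCm38.p6, chr17:31677681-31677980 on the plus strand for Cryaa and chr11:77725244-77725543 on the minus strand for Cryba1, with the motif TGCTGAC, searched on both strands, in capitals.
Cryaa: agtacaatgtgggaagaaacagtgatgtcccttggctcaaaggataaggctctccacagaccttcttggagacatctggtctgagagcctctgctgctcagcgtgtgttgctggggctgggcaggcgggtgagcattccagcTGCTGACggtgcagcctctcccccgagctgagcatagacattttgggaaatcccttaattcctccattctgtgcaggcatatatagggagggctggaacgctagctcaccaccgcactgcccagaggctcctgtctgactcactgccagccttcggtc
Cryba1: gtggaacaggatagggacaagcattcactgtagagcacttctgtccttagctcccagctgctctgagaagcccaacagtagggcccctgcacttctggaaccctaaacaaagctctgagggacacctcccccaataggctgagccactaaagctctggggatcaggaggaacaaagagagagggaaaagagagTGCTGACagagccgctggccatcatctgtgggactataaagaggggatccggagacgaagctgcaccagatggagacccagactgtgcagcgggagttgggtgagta
The motif occurs in 4 of the 17 windows of tested lens genes, in 3.67% of the windows of all tested genes and in 4.67% of all 32851 windows. It also occurs in 3 of 13 windows of tested melanin and melanosome genes, so it is not particular to the lens list. A match is a description of these letters and not a binding site.

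**Figure D2:**
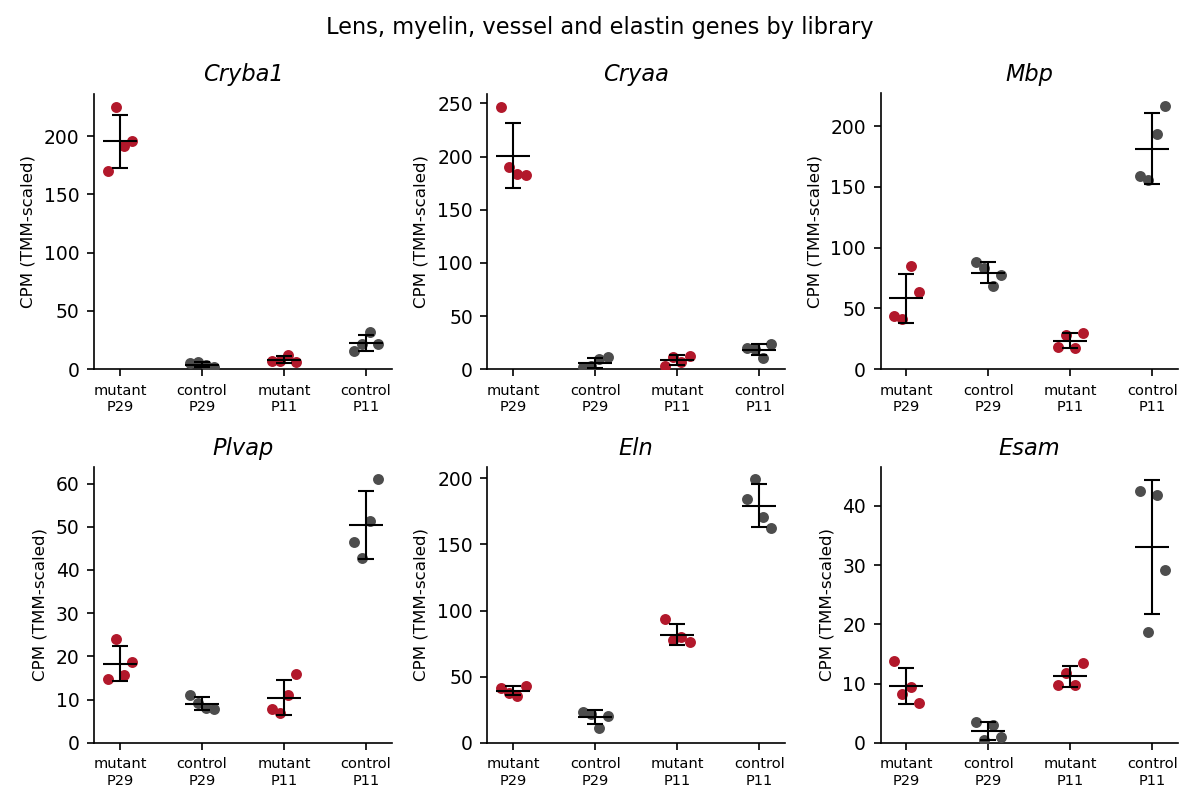
CPM of Cryba1, Cryaa, Mbp, Plvap, Eln and Esam in each library (points) with the mean and SD of each group (bars, n = 4), groups from left to right mutant P29, control P29, mutant P11 and control P11. Both crystallin genes stand high in P29 mutants alone, at 170 to 247 CPM, and the other 4 genes stand highest in P11 controls.

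Of 9 tested myelin genes 3 had a positive interaction and none a negative one (median 2.49), at P11 7 were lower in mutants, and at P29 edgeR and DESeq2 called none, while voom called 1 lower and 2 were lower at an unadjusted p under 0.05 in edgeR. Mbp, a structural protein of the myelin sheath, held 43.8, 41.4, 84.5 and 63.9 CPM in mutants at P29, against 88.2, 83.3, 68.2 and 77.8 CPM in controls at P29. P11 mutants held 18.7, 27.9, 17.9 and 29.6 CPM, against 159, 156, 194 and 217 CPM in P11 controls. The groups overlapped at P29 and lay far apart at P11. The interaction was 2.49 (SE 0.26, edgeR adjusted p = 3.46e-12); from P11 to P29 Mbp rose by 1.30 in mutants (SE 0.20) and fell by 1.19 in controls (SE 0.17).

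Mobp, a structural protein of oligodendrocyte myelin, had 53 counts in mutants and 93 in controls over the P29 groups, and 1 in mutants and 315 in controls over the P11 groups. At P11 that is a depth-scaled ratio of control to mutant of 351 (95% exact interval 62.5 to 13890, counting error only), and its fitted interaction of 7.13 (SE 1.01) depends on the prior count. Gfap, the intermediate filament of astrocytes, averaged 3.93 CPM ± 1.91 in mutants and 0.648 ± 0.764 in controls at P29, and 7.96 ± 4.22 in mutants and 63.1 ± 12.7 in controls at P11 (interaction 5.55, SE 0.80, edgeR adjusted p = 2.65e-07). The summed myelin list ran from 719 to 819 CPM in mutants and from 848 to 946 CPM in controls at P29, and from 281 to 338 in mutants and 596 to 761 CPM in controls at P11. With the Y-linked score the calls of Mbp and Mobp were kept and that of Gfap was not. Opalin had no count in any group but controls at P11, and Mog had none in controls at P29 and mutants at P11. The part of glial tissue in these values was not tested.

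Vessel and matrix genes were likewise called mainly at P11. Endothelial genes had 5 positive and no negative interactions among 14 tested (median 2.07). All 14 interaction values were positive, and at P11 8 genes were lower in mutants and none higher. At P29 1 gene was called higher in mutants and 1 lower, and 10 of the 14 differences were positive. Plvap, a protein of fenestrated capillaries such as those of the choroid, held 14.8, 24.0, 15.8 and 18.8 CPM in mutants at P29, against 11.1, 9.16, 8.11 and 7.93 CPM in controls at P29. The P11 libraries had 7.86, 6.98, 11.2 and 15.8 CPM in mutants, against 46.5, 42.7, 51.3 and 61.1 CPM in controls. Mutants lay above controls at P29 and below them at P11 without overlap, although the P29 difference missed the threshold (1.01, SE 0.36, edgeR adjusted p = 0.127). The interaction was 3.26 (SE 0.50, adjusted p = 1.31e-06). Esam, an adhesion molecule of endothelial junctions, averaged 9.54 CPM ± 3.07 in mutants and 1.98 ± 1.52 in controls at P29, and 11.2 ± 1.73 in mutants and 33.0 ± 11.3 in controls at P11 (interaction 3.74, SE 0.68). At 3M the mutants held 21 counts of it and the controls 0.

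Rgs5, a regulator of G protein signalling in pericytes, averaged 106 CPM ± 10.1 in mutants and 110 ± 14.9 in controls at P29, and 89.7 ± 14.2 in mutants and 176 ± 13.8 in controls at P11 (interaction 0.92, SE 0.19, edgeR adjusted p = 0.000497). Of 20 basement membrane and elastic fibre genes 3 had a positive interaction and none a negative one, and 9 were lower in mutants at P11. Eln, the elastin of Bruch's membrane and vessel walls, held 41.5, 37.4, 35.4 and 42.7 CPM in mutants at P29, against 23.6, 21.9, 11.4 and 20.3 CPM in controls at P29. Values at P11 were 93.4, 78.1, 80.0 and 75.9 CPM in mutants, against 184, 199, 171 and 163 CPM in controls. The gene was called higher in mutants at P29 (1.03, SE 0.22) and lower at P11 (-1.13, SE 0.19), and fell with age in both genotypes, by 1.06 in mutants and 3.21 in controls. Col4a1, a chain of basement membrane collagen, had 39.1 CPM ± 2.63 in mutants and 30.8 ± 5.80 in controls at P29, and 69.6 ± 6.39 in mutants and 151 ± 14.7 in controls at P11 (interaction 1.45, SE 0.27). Thbs1, a matrix glycoprotein, was called at P29 and not at P11: 344 CPM ± 24.95 in mutants and 226 ± 30.99 in controls at P29, and 428 ± 27.2 in mutants and 439 ± 57.1 in controls at P11 (interaction 0.64, SE 0.13), while at 3M it was lower in mutants (-0.49, SE 0.10, edgeR adjusted p = 0.000191). Eln, Col4a1 and Thbs1 each overlap an exon on the other strand.

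The endothelial list summed to 254 to 288 CPM in mutants and 321 to 363 CPM in controls at P29, and to 279 to 360 in mutants and 659 to 732 CPM in controls at P11, and its part in the matrix result was not tested. At P29 that sum was lower in mutants, whereas Plvap and Esam had higher means there. With the Y-linked score no endothelial or basement membrane call was kept, while those of Rgs5 and Thbs1 were.

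Immediate early genes, transcription factors and RNA regulators that respond within minutes to light, injury or other stimuli, were called lower in mutants at both ages. Of 17 tested members 7 had a positive interaction and none a negative one (median 0.85), 6 were lower in mutants at P29 and 14 at P11, and none was higher at either age. Nr4a1, a nuclear receptor induced by cAMP, held 111, 85.5, 123 and 126 CPM in mutants at P29, against 139, 146, 124 and 133 CPM in controls at P29. In mutants at P11 there were 5.90, 8.72, 7.59 and 6.90 CPM, against 32.4, 30.7, 28.5 and 30.3 CPM in controls at P11. The genotypes overlapped at P29, while every P11 mutant lay below every P11 control, a difference of -2.06 (SE 0.22). The interaction was 1.78 (SE 0.26, edgeR adjusted p = 5.42e-07).

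Fosb, a subunit of the AP-1 transcription factor, kept a difference at P29: it held 319, 288, 351 and 288 CPM in mutants and 485, 560, 572 and 495 CPM in controls. At P11 it held 32.9, 51.5, 34.8 and 25.6 CPM in mutants, against 124, 99.3, 102 and 115 CPM in controls. No mutant library reached a control library at either age, and the difference was -0.76 at P29 (SE 0.10) and -1.61 at P11 (SE 0.13). At 3M Fosb was higher in mutants, by 0.72 (SE 0.11, edgeR adjusted p = 5.22e-07). The relative Fos, named after its values were seen, was lower in mutants at P11 (-0.73, SE 0.17), but its interaction of 0.46 (SE 0.22) did not pass (edgeR adjusted p = 0.378). Nr4a2 averaged 92.1 CPM ± 15.8 in mutants and 92.5 ± 5.76 in controls at P29, and 12.02 ± 5.01 in mutants and 35.5 ± 11.4 in controls at P11 (interaction 1.60, SE 0.32). Zfp36, which destabilises AU-rich messages, had an interaction of 1.60 (SE 0.37, edgeR adjusted p = 0.00305), with 58.2 CPM ± 8.46 in mutants and 63.4 ± 7.90 in controls at P29, and 6.52 ± 1.71 in mutants and 22.4 ± 11.2 in controls at P11.

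These genes rose with age in both genotypes. Nr4a1 rose by 3.92 in mutants and 2.15 in controls, Fosb by 3.10 in mutants and 2.25 in controls, and the list as a whole had 16 of 17 members higher at P29 in mutants and 14 in controls. Summed over 19 genes the list ran from 2958 to 3225 CPM in mutants and 4069 to 4452 CPM in controls at P29, and from 589 to 691 in mutants and 1025 to 1123 CPM in controls at P11. Leaving out 1 library gave 5 to 8 interaction calls, voom gave 4, in which Zfp36 was lost, and with the Y-linked score none was kept.

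The promoters of Nr4a1 and Nr4a2 are shown because each holds 4 copies of the core of the cAMP response element, TGACG, counted on both strands. The windows are chr15:101266596-101266895 on the plus strand for Nr4a1 and chr2:57123954-57124253 on the minus strand for Nr4a2, from RefSeq in GRCm38.p6, with the motif in capitals.
Nr4a1: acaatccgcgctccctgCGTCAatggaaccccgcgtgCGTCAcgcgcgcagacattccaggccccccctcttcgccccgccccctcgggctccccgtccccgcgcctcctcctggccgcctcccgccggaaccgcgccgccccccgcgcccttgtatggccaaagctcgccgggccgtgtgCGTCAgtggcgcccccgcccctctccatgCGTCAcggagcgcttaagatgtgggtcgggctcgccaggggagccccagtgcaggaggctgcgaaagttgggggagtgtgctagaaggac
Nr4a2: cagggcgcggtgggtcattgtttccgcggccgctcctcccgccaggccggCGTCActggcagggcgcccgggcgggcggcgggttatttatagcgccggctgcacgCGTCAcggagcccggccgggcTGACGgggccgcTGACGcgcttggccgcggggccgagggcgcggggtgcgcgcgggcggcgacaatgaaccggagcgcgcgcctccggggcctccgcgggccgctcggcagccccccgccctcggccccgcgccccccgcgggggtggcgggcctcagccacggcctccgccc
The motif was found in 11 of 18 windows of tested immediate early genes, in 30.7% of the windows of all tested genes and in 20.8% of all windows. Several of those 18 windows belong to Egr2 and overlap, so the same motif copies were counted more than once.

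Targets and inhibitors of BMP signalling also had positive values. Of 19 tested genes of the TGF-beta and BMP list 4 had a positive interaction and none a negative one, the Id genes Id1, Id2 and Id3 and the antagonist Nog. Id2, an inhibitor of basic helix-loop-helix factors, held 494, 475, 415 and 414 CPM in mutants at P29, against 328, 313, 292 and 285 CPM in controls at P29. P11 mutants held 288, 259, 260 and 319 CPM, against 325, 325, 354 and 306 CPM in P11 controls. The groups were apart at P29 alone, and the interaction was 0.78 (SE 0.12, edgeR adjusted p = 1.69e-06). Id3 averaged 144 CPM ± 4.99 in mutants and 126 ± 9.55 in controls at P29, and 90.0 ± 20.9 in mutants and 148 ± 8.21 in controls at P11, and was called at P11 alone (interaction 0.91, SE 0.18). Nog, secreted by the RPE and other tissues, averaged 85.9 CPM ± 17.02 in mutants and 125 ± 14.5 in controls at P29, and 7.53 ± 4.01 in mutants and 32.9 ± 16.1 in controls at P11 (interaction 1.61, SE 0.33), a call that voom did not make. With the Y-linked score the call of Id2 was kept and those of Id3 and Nog were not.

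**Figure D3:**
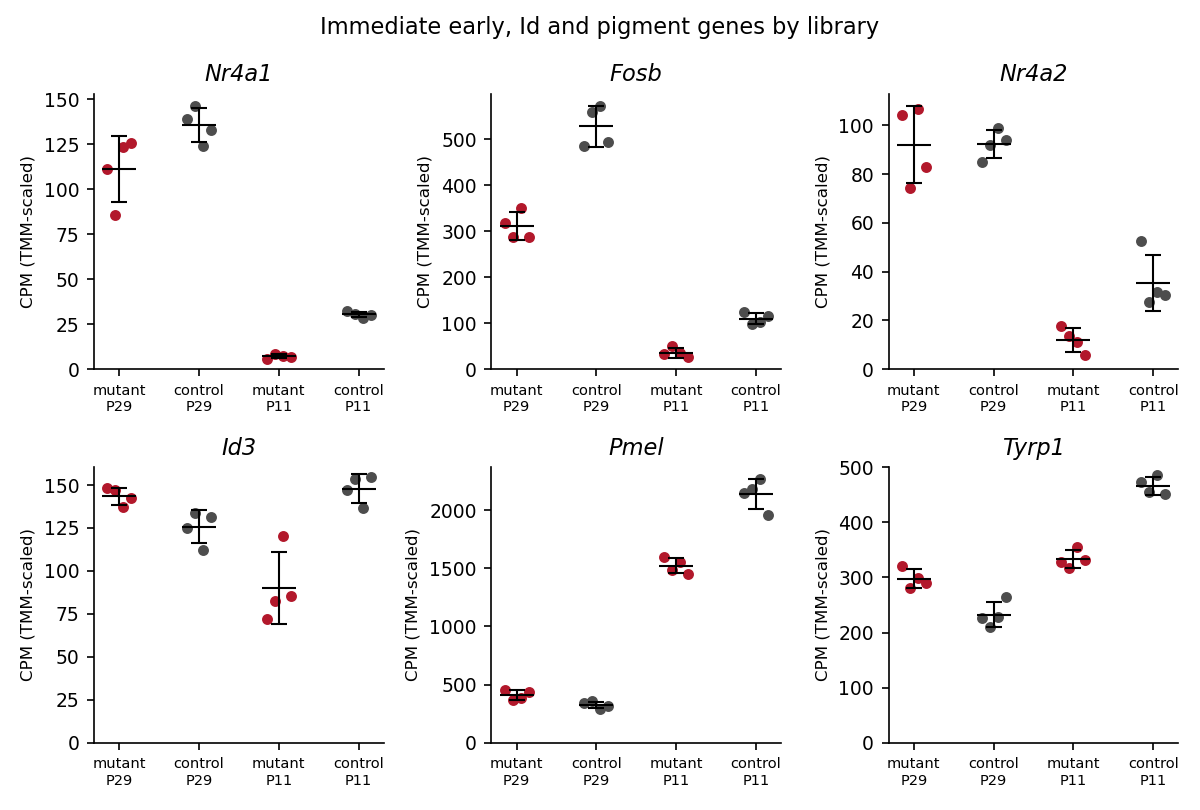
CPM of Nr4a1, Fosb, Nr4a2, Id3, Pmel and Tyrp1 in each library (points) with the mean and SD of each group (bars, n = 4), groups from left to right mutant P29, control P29, mutant P11 and control P11. In all 6 genes the P11 mutants lie below the P11 controls, whereas at P29 mutants lie below controls without overlap in Fosb and above them without overlap in Id3, Pmel and Tyrp1.

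Pmel and Tyrp1 were higher in mutants at P29 and lower at P11. Of 14 tested melanin and melanosome genes 3 had a positive interaction and none a negative one (median 0.34); 3 were higher in mutants at P29, and 4 were lower and none higher at P11. Pmel, which forms the fibrils of the melanosome, held 450, 364, 382 and 440 CPM in mutants at P29, against 338, 357, 294 and 318 CPM in controls at P29. The P11 libraries had 1601, 1485, 1555 and 1455 CPM in mutants, against 2147, 2180, 2272 and 1960 CPM in controls. It fell with age in both genotypes, by 1.90 in mutants and 2.71 in controls, and the interaction was 0.81 (SE 0.11, edgeR adjusted p = 5.54e-08). Exons of Cdk2 and Dgka overlap it on the other strand.

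Tyrp1, an enzyme of melanin synthesis, held 321, 281, 300 and 289 CPM in mutants at P29, against 226, 211, 228 and 265 CPM in controls at P29. Values at P11 were 328, 318, 356 and 333 CPM in mutants, against 473, 456, 487 and 451 CPM in controls. The groups lay apart at both ages, and the fall with age was called in controls (-1.01, SE 0.09) and not in mutants (-0.16, SE 0.09); the interaction was 0.84 (SE 0.13, edgeR adjusted p = 1.00e-06). Mlana, a melanosome protein, averaged 106 CPM ± 11.3 in mutants and 66.4 ± 9.66 in controls at P29, and 92.9 ± 15.7 in mutants and 121 ± 13.4 in controls at P11 (interaction 1.04, SE 0.22). All 3 genes are also made by choroidal melanocytes, in whose list 5 of 9 had a positive interaction, and the melanin list summed to 6353 to 6698 CPM in mutants and 6293 to 6753 CPM in controls at P29, and to 9550 to 10049 in mutants and 10508 to 11475 CPM in controls at P11. Which pigment cell the difference lay in was not tested, and none of the 3 calls was kept with the Y-linked score.

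The promoter of Tyrp1 is shown because it holds CATGTG, the core of the E-box variant known from MITF targets, in capitals in the window chr4:80833963-80834262 on the plus strand (RefSeq, GRCm38.p6).
Tyrp1: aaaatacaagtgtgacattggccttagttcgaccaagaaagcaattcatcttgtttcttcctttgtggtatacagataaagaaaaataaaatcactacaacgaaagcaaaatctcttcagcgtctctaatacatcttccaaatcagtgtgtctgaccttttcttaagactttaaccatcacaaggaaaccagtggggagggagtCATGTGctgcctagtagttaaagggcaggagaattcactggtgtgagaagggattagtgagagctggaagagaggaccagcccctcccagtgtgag
That core was found on either strand in 6 of 13 windows of tested melanin genes, in 8.35% of the windows of all tested genes and in 14.2% of all windows.

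Of 13 visual cycle genes 6 were lower in mutants at P29 and 7 at P11, with medians of -0.22 at P29 and -0.28 at P11, and the median interaction was 0.00. Rpe65, the isomerase of the visual cycle, named after its values were seen, held 6118, 6093, 5898 and 6038 CPM in mutants at P29, against 7593, 7831, 7390 and 7854 CPM in controls at P29. In mutants at P11 there were 1950, 1889, 1901 and 1967 CPM, against 2420, 2424, 2396 and 2407 CPM in controls at P11. Mutants lay below controls at both ages, with differences of -0.34 at P29 (SE 0.04) and -0.32 at P11 (SE 0.04), and the interaction was -0.02 (SE 0.06, edgeR adjusted p = 0.935). Rgr, a retinal G protein-coupled receptor of the same cycle, was the list's only interaction call: 3968 CPM ± 122 in mutants and 5521 ± 141 in controls at P29, and 1164 ± 18.9 in mutants and 1342 ± 86.3 in controls at P11, an interaction of -0.27 (SE 0.06, edgeR adjusted p = 0.00539) that voom did not call.

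Trf, the iron carrier transferrin, held 7792, 7322, 7355 and 7461 CPM in mutants at P29, against 8236, 8718, 8322 and 8276 CPM in controls at P29. At P11 it held 1565, 1734, 1643 and 1645 CPM in mutants, against 2586, 2680, 2678 and 2401 CPM in controls. Mutants lay below controls at both ages, with differences of -0.16 at P29 (SE 0.04) and -0.65 at P11 (SE 0.04), and the interaction was 0.49 (SE 0.06, edgeR adjusted p = 9.89e-10), kept with the Y-linked score; an exon of Gm20425 overlaps it on the same strand. Of 19 ion and metabolite transport genes 4 had a positive interaction and none a negative one. That count was 2 without P11 mutant replicate 4, P29 control replicate 1, P29 mutant replicate 2 or P29 mutant replicate 3. The water channel Aqp1 averaged 50.01 CPM ± 5.55 in mutants and 28.7 ± 14.7 in controls at P29, and 21.9 ± 10.4 in mutants and 51.4 ± 15.2 in controls at P11 (interaction 2.02, SE 0.38), and is also made by vessels. The taurine transporter Slc6a6 averaged 1126 CPM ± 42.1 in mutants and 1162 ± 72.2 in controls at P29, and 687 ± 61.1 in mutants and 930 ± 81.1 in controls at P11 (interaction 0.39, SE 0.09). Cdh3, the P-cadherin of RPE junctions, was edgeR's only call among 18 epithelial junction and keratin genes: 71.7 CPM ± 6.78 in mutants and 66.9 ± 15.7 in controls at P29, and 44.7 ± 11.0 in mutants and 91.5 ± 23.3 in controls at P11 (interaction 1.13, SE 0.26, edgeR adjusted p = 0.00316). DESeq2 made 1 positive and 1 negative call in that list, and leaving out P11 mutant replicate 3 gave 2 positive calls and leaving out P11 control replicate 4 gave 1 positive and 1 negative. With the Y-linked score the calls of Rgr, Aqp1, Slc6a6 and Cdh3 were lost. The 12 RPE markers summed to 43932 to 46417 CPM in mutants and 51062 to 52089 CPM in controls at P29, and to 19271 to 20220 in mutants and 20176 to 20975 CPM in controls at P11, with none of them at 0 in any group.

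Cox8b, a subunit of cytochrome c oxidase, had a call at P29 alone. It held 471, 428, 541 and 433 CPM in mutants at P29, against 262, 235, 236 and 214 CPM in controls at P29. P11 mutants held 146, 114, 126 and 167 CPM, against 161, 123, 182 and 122 CPM in P11 controls. The groups lay far apart at P29 and overlapped at P11, with an interaction of 1.07 (SE 0.15, edgeR adjusted p = 2.65e-07) that was kept with the Y-linked score. Srebf1, a regulator of lipid synthesis genes, was called in opposite directions: 55.2 CPM ± 11.7 in mutants and 31.3 ± 5.50 in controls at P29, and 29.1 ± 11.5 in mutants and 49.6 ± 13.4 in controls at P11 (interaction 1.60, SE 0.30), a call lost with the Y-linked score. It overlaps an exon of Rai1 on the other strand. Ubb, a ubiquitin gene, was lower in mutants at both ages, with differences of -0.38 at P29 (SE 0.08) and -0.99 at P11 (SE 0.08) and an interaction of 0.61 (SE 0.11, edgeR adjusted p = 5.73e-05).

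Of 19 tested rod genes 6 had a positive interaction and 1 a negative one (median 0.33), 17 were higher at P29 and 8 at P11, and edgeR called none lower at either age, while voom called 18 higher and 1 lower at P29. Gnat1, the rod transducin alpha subunit, held 2172, 2203, 2107 and 2040 CPM in mutants at P29, against 1581, 1462, 1488 and 1574 CPM in controls at P29. The P11 libraries had 508, 534, 522 and 592 CPM in mutants, against 511, 521, 496 and 564 CPM in controls. The genotypes were apart at P29 and intermingled at P11, and the interaction was 0.44 (SE 0.09, edgeR adjusted p = 0.000879). Prph2, a disc rim protein, averaged 1005 CPM ± 27.5 in mutants and 700 ± 41.4 in controls at P29, and 920 ± 33.1 in mutants and 909 ± 82.1 in controls at P11 (interaction 0.50, SE 0.10). Sag, the rod arrestin, was higher in mutants at both ages, by 0.70 at P29 (SE 0.06) and 0.36 at P11 (SE 0.06), and by 1.13 at 3M (SE 0.06).

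Slc24a1, the sodium, calcium and potassium exchanger of rods, had the list's negative value: 1034 CPM ± 41.2 in mutants and 1206 ± 129 in controls at P29, and 559 ± 39.7 in mutants and 473 ± 47.1 in controls at P11 (interaction -0.46, SE 0.10, edgeR adjusted p = 0.00124). The rod list summed to 20007 to 21179 CPM in mutants and 14717 to 15395 CPM in controls at P29, and to 18348 to 18763 in mutants and 15512 to 16408 CPM in controls at P11. No cone gene of 9 and no inner retinal neuron gene of 19 had an interaction call in edgeR; 1 cone gene and 4 neuron genes had an unadjusted p under 0.05, DESeq2 called 1 cone gene and 0 neuron genes, and voom 0 cone genes and 1 neuron gene. The globin genes Hbb-bs and Hbb-bt, near-identical copies whose counts may lack shared reads, had interactions of 0.37 (SE 0.07) and 0.46 (SE 0.10), with mutants called higher at P29 and not at P11. The interaction call of Hbb-bs was lost in voom and with the Y-linked score, and that of Hbb-bt was kept in both. None of the rod calls was kept with the Y-linked score, and the part of retained photoreceptor material in them was not tested.

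**Figure D4:**
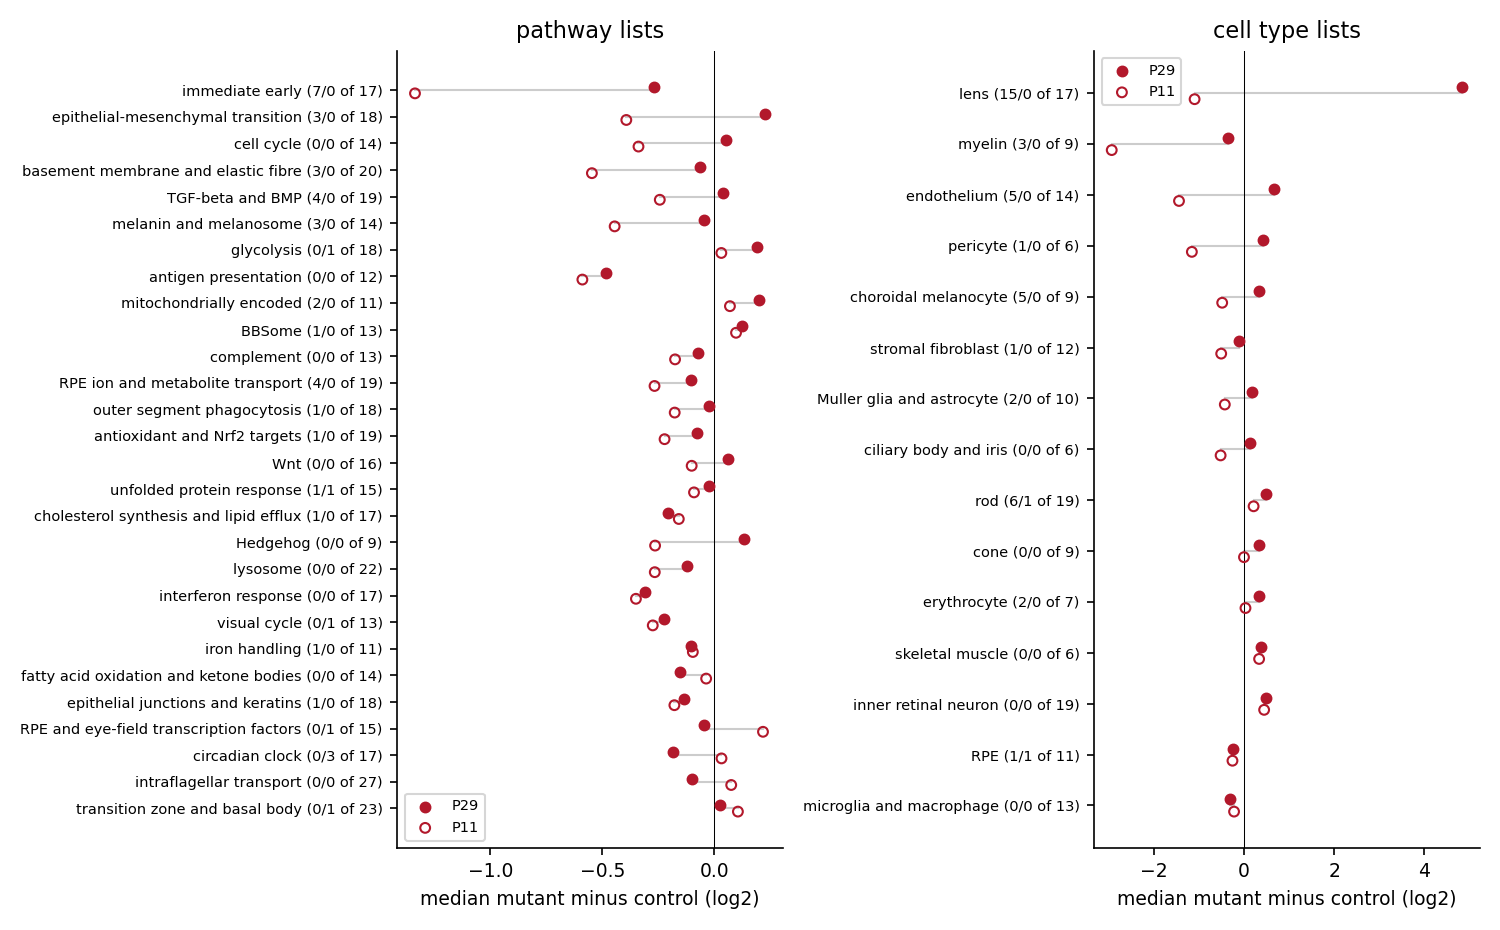
Median mutant minus control difference (log2) of each gene list with at least 5 tested genes, at P29 (filled) and P11 (open), for pathway lists (left) and cell type lists (right), with the number of positive and negative interaction calls of tested genes in brackets. The lens list spans 4.84 at P29 and -1.10 at P11, the immediate early list stays below 0 at both ages, and the visual cycle and RPE lists sit at nearly the same value at both.

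Among the 145 genes with a negative interaction, Pttg1 had the smallest p. It encodes securin, which keeps separase inactive until sister chromatids part, and held 44.7, 35.5, 35.9 and 40.8 CPM in mutants at P29, against 75.3, 88.9, 73.4 and 99.6 CPM in controls at P29. Values at P11 were 42.3, 50.6, 50.03 and 49.9 CPM in mutants, against 24.4, 35.5, 17.7 and 29.2 CPM in controls. The change with age was not called in mutants (-0.30, SE 0.16, edgeR adjusted p = 0.153) while controls rose by 1.66 (SE 0.17), which gave an interaction of -1.96 (SE 0.23, edgeR adjusted p = 3.32e-10). At 3M the difference was 0.22 (SE 0.14) and was not called.

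Atf4, Atrx, Kcnq1ot1 and Nktr were called lower in mutants at P29 and higher at P11, and Hsp90aa1, Arid4b, Pnisr and Malat1 were called higher at P11 alone. Atf4, the transcription factor of the integrated stress response, held 207, 231, 205 and 184 CPM in mutants at P29, against 294, 269, 259 and 272 CPM in controls at P29. In mutants at P11 there were 284, 349, 317 and 347 CPM, against 227, 205, 204 and 282 CPM in controls at P11. Its interaction was -0.90 (SE 0.14, edgeR adjusted p = 3.25e-06), whereas that of Xbp1, another factor of the unfolded protein response, was 1.33 (SE 0.28, adjusted p = 0.00106). Xbp1 averaged 64.1 CPM ± 6.21 in mutants and 43.8 ± 3.92 in controls at P29, and 21.6 ± 4.88 in mutants and 36.5 ± 10.7 in controls at P11, and at 3M was lower in mutants (-0.78, SE 0.19). In edgeR and voom Atf4 and Xbp1 were the only calls among 15 tested genes of that response, and DESeq2 called 3 with a positive and 1 with a negative interaction; with the Y-linked score the call of Xbp1 was lost and that of Atf4 kept. Hsp90aa1, an inducible chaperone, averaged 1335 CPM ± 86.2 in mutants and 1477 ± 90.5 in controls at P29, and 1135 ± 28.8 in mutants and 873 ± 32.9 in controls at P11 (interaction -0.52, SE 0.08).

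Atrx, an X-linked chromatin remodeller, held 280, 315, 313 and 245 CPM in mutants at P29, against 358, 329, 386 and 377 CPM in controls at P29. At P11 it held 458, 514, 465 and 509 CPM in mutants, against 387, 309, 335 and 407 CPM in controls. The groups were apart at both ages in opposite order (interaction -0.76, SE 0.12, edgeR adjusted p = 5.54e-06). Arid4b, a subunit of a histone deacetylase complex, averaged 186 CPM ± 10.3 in mutants and 202 ± 3.71 in controls at P29, and 285 ± 15.9 in mutants and 173 ± 4.28 in controls at P11 (interaction -0.84, SE 0.14). Pnisr, a nuclear protein with an arginine and serine rich domain, and Nktr, a cyclophilin-related protein, had interactions of -0.75 (SE 0.12) and -0.56 (SE 0.11). The imprinted antisense RNA Kcnq1ot1 had 190 CPM ± 26.1 in mutants and 246 ± 24.7 in controls at P29, and 284 ± 22.7 in mutants and 206 ± 4.23 in controls at P11 (interaction -0.84, SE 0.14), but its reads cannot be told apart from those of Kcnq1, which it overlaps on the other strand. Arid4b and Nktr also overlap an exon on the other strand.

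The nuclear RNA Malat1, named after its values were seen, held 17114, 20633, 16714 and 17981 CPM in mutants at P29, against 21981, 19915, 26262 and 24100 CPM in controls at P29. P11 mutants held 15722, 16288, 16532 and 16627 CPM, against 9590, 9578, 9777 and 13010 CPM in P11 controls. The interaction was -0.98 (SE 0.14, edgeR adjusted p = 0.000188). Malat1 and Kcnq1ot1 stay in the nucleus, and beside them reads outside every feature made up 20.8% in mutants and 21.4% in controls at P29, and 27.03% in mutants and 23.4% in controls at P11. The part of RNA quality or of nuclear RNA in these differences was not tested.

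**Figure D5:**
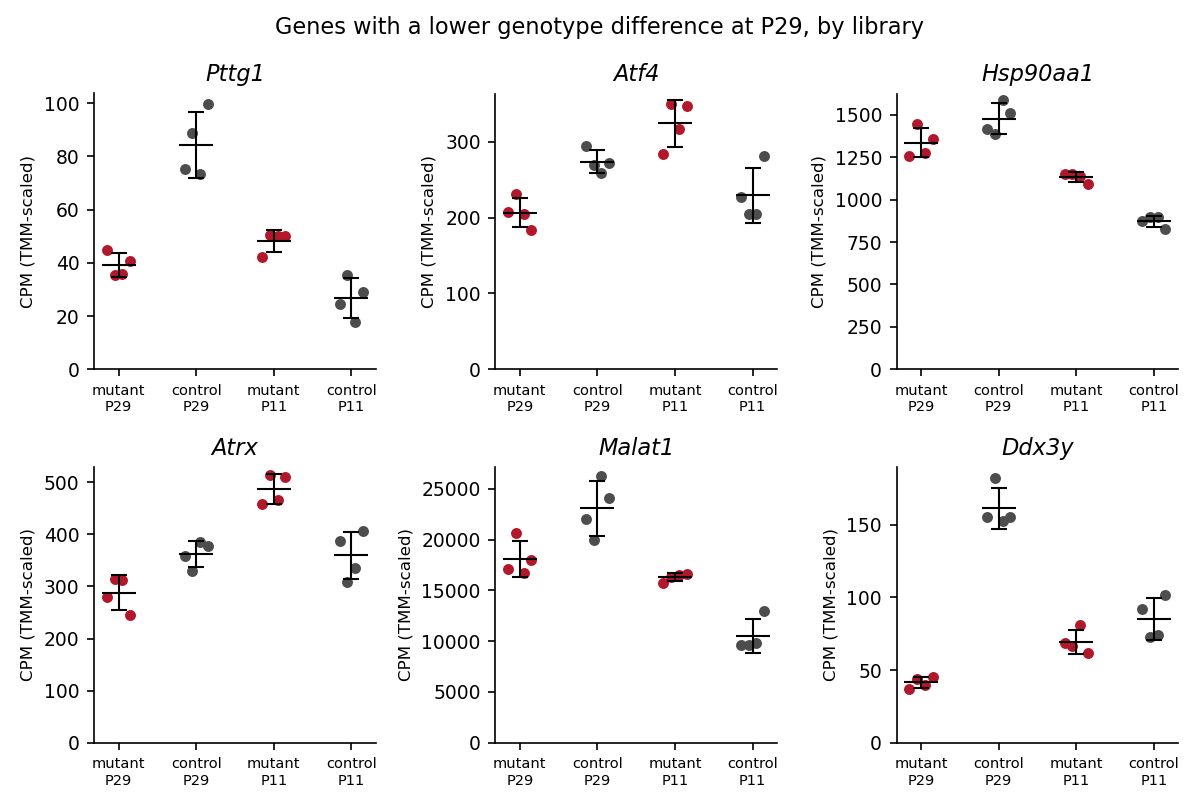
CPM of Pttg1, Atf4, Hsp90aa1, Atrx, Malat1 and Ddx3y in each library (points) with the mean and SD of each group (bars, n = 4), groups from left to right mutant P29, control P29, mutant P11 and control P11. In the first 5 genes mutant means lie below control means at P29 and above them at P11, and the Y-linked Ddx3y is lowest in P29 mutants at 37.3 to 45.5 CPM.

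Arl6ip1, a membrane protein of the endoplasmic reticulum, held 4627, 4631, 4617 and 4453 CPM in mutants at P29, against 5737, 5555, 5578 and 5690 CPM in controls at P29. The P11 libraries had 2251, 2336, 2333 and 2327 CPM in mutants, against 2258, 2180, 2096 and 2303 CPM in controls. The groups were apart at P29 and overlapped at P11 (interaction -0.37, SE 0.06, edgeR adjusted p = 1.82e-05). Shisal1 averaged 67.1 CPM ± 17.7 in mutants and 112 ± 12.4 in controls at P29, and 37.7 ± 6.93 in mutants and 25.1 ± 1.29 in controls at P11 (interaction -1.32, SE 0.23).

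Of 17 clock genes 3 had a negative interaction and none a positive one. Ciart, a repressor of the clock, had 93 counts in mutants and 146 in controls over the P29 groups, and 32 in mutants and 2 in controls over the P11 groups. At P11 that is a depth-scaled ratio of mutant to control of 14.4 (95% exact interval 3.67 to 124), and the fitted interaction of -4.19 (SE 0.84), which voom did not call, depends on the prior count. The nuclear receptor Rorb averaged 352 CPM ± 41.5 in mutants and 347 ± 25.4 in controls at P29, and 607 ± 23.9 in mutants and 417 ± 32.3 in controls at P11 (interaction -0.52, SE 0.12). The clock list had 2 or 3 negative calls on leaving out 1 library. Six3, a homeobox gene of the eye field, averaged 883 CPM ± 67.0 in mutants and 956 ± 69.3 in controls at P29, and 820 ± 25.4 in mutants and 601 ± 85.1 in controls at P11 (interaction -0.57, SE 0.12, edgeR adjusted p = 0.00162), and overlaps an exon of Gm28528 on the other strand. With the Y-linked score Pttg1, Atf4, Ciart and Six3 kept their calls, and the other genes with a negative interaction named above did not.

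Of the 145, 3 were Y-linked. Ddx3y, a helicase gene whose levels are given above, had an interaction of -1.65 (SE 0.20) and Kdm5d, a histone demethylase, of -2.67 (SE 0.50), with 3.83 CPM ± 1.39 in mutants and 19.3 ± 2.98 in controls at P29, and 23.4 ± 4.86 in mutants and 18.2 ± 4.84 in controls at P11. Of the interaction calls 308 lay outside the X, Y and mitochondrial chromosomes, a count made without a new fit.

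Of 18 genes tied to epithelial-mesenchymal transition 3 had a positive interaction and none a negative one (median 0.70): the intermediate filament gene Vim at 0.82, the smooth muscle actin gene Acta2 at 0.88, and Thbs1. Vessel cells, glia or fibroblasts also make these, and the part of such cells was not tested. Among 18 genes of outer segment phagocytosis the integrin subunit gene Itgb5 had edgeR's only call, a positive one that was lost in voom, with the Y-linked score, and without P11 mutant replicate 1 or 2, P11 control replicate 1 or 3, P29 mutant replicate 3 or 4, or P29 control replicate 1. Among 18 glycolysis genes Pfkp, a phosphofructokinase, was edgeR's only call, at -0.79. The list went mostly the other way, with 15 positive values and a median of 0.22, and leaving out 1 library gave up to 1 positive call. None of 22 lysosome genes was called by edgeR, although 4 had a positive value at an unadjusted p under 0.05. The share of all tested genes at that unadjusted threshold is not given here, so the 4 cannot be set against it. DESeq2 called 2 in the list and voom 0, and 2 were called without P11 control replicate 4.

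Among ciliary genes edgeR made an interaction call in 0 of 27 intraflagellar transport, 1 of 13 BBSome and 1 of 23 transition zone genes. At an adjusted p under 0.05 the share over all tested genes was 2.63%, which is no base for counts at an unadjusted p. Ift20 (ENSMUSG00000001105, chromosome 11 from 78536361 to 78541737 in GRCm38) held 70.1, 57.9, 88.8 and 68.6 CPM in mutants at P29, against 121, 84.9, 124 and 102 CPM in controls at P29. Values at P11 were 76.7, 94.2, 90.7 and 80.8 CPM in mutants, against 106, 93.8, 60.7 and 150 CPM in controls. The genotypes overlapped at both ages, the difference was called at P29 (-0.60, SE 0.15, edgeR adjusted p = 0.0112) and not at P11 (-0.27, SE 0.16, adjusted p = 0.353), and the interaction did not pass (-0.33, SE 0.22, adjusted p = 0.547). Which exons were floxed is not stated, and 3' tags may fall beyond them, so these levels are no check of the labels. Of 27 intraflagellar transport genes none had an interaction call in edgeR, DESeq2 or voom, and 2 had an unadjusted p under 0.05 in edgeR, both negative. The median value was -0.22.

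Among 13 BBSome genes Mkks, a chaperonin for BBSome assembly, was called, at 1.78, and that call was lost without P11 mutant replicate 1, 2 or 4, P11 control replicate 1, P29 mutant replicate 3, or P29 control replicate 3 or 4. Among 23 transition zone and basal body genes Ahi1 was called, at -0.58, and lost without P11 control replicate 3 or P29 mutant replicate 4. No Hedgehog gene of 9 was called by edgeR, DESeq2 or voom (1 at an unadjusted p under 0.05 in edgeR), and no Wnt gene of 16 by edgeR or voom (1 unadjusted), with 1 negative call by DESeq2.

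At 3M the genotype difference was called in 321 genes (2.61%), with 262 higher (2.13%) and 59 lower (0.48%). Of the 178 genes with a positive interaction 20 were higher in mutants at 3M, 11 lower and 147 not called, and of the 145 with a negative one 1 was higher, 5 lower and 139 not called. The median 3M difference was 0.07 in the first set and 0.05 in the other, against 0.03 over all genes. At P29 the medians were 0.38 and -0.25 and at P11 -0.70 and 0.50. The sets were chosen by the P29 and P11 values, which makes those medians larger, so they are no fair measure against 3M. Lens, pigment and myelin genes named above had no 3M call, whereas Sag, Gnat1, Prph2, Fosb and Rgs5 were among those called higher, and Nr4a1, Xbp1 and Thbs1 among those called lower.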

How the data were processed

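Tags near the 3' end of transcripts in isolated mouse RPE were sequenced, per the labels' protocols. The deposited values are whole-number counts, and STAR and mm10 appear in the submitters' processing notes; the sources used here state neither the counting tool nor its annotation or strand setting. Every file lists 31053 gene identifiers, of which 31011 are in GENCODE M21 (GRCm38), and 5 special entries that were kept apart from genes; reads outside every feature amounted to 20.6% to 27.5% in the 16 libraries and multiply aligned reads to 31.02% to 37.2%.

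All 24 libraries were fitted in edgeR 4.0.16 (TMM, filterByExpr, robust quasi-likelihood, R 4.3.3) with 1 mean per group, and p-values were adjusted by Benjamini-Hochberg over 12303 genes with a threshold of 0.05. CPM are scaled by TMM factors of 0.937 to 1.049, SE is the log2 value divided by the root of F, and ± is the SD of 4 libraries. The contrast, the 46 gene lists and the named genes were chosen with earlier results of these data known. The naming rule took Ift20 and, in each direction, genes with the smallest p and the largest values, members of each class of calls and up to 4 members of each list, 207 genes in all, of which the text gives a part; Fos, Rpe65 and Malat1 were added after their values were seen. Alternatives were median-of-ratios scaling, DESeq2 1.42.0, voom with quality weights (limma 3.58.1), no filter or 5 CPM in 4 libraries, the 16 libraries alone, leaving out 1 library, a replicate block, a Y-linked score, an autosomal set and a test against a 1.5-fold change. The autosomal set is a count of the main calls outside the X, Y and mitochondrial chromosomes, without a new fit or adjustment. The procedure was tested on simulated data. In each of the 36 replicate pairs counts differed beyond sampling noise, with chi-square values per gene of 2.99 to 7.25. Intervals and floors cover counting error only. Promoter windows came from RefSeq (GRCm38.p6). Some items withheld for evaluation are not reported here.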

Additional observations from a re-analysis of the deposited data

Results flagged for a closer look

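The genotype difference itself differed between the ages in the interaction test, with 178 genes higher at P29 than at P11 and 145 lower. Of 268 groups of 4 values examined, 17 (6.34%) held 1 library that stood apart from the others; chance gives about 1 in 20.

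In lens and myelin genes, P29 mutant replicate 1 held 247.1 CPM of Cryaa against 182.6 to 190.7 in the others of its group and P11 mutant replicate 1 held 0.4914 CPM of Mobp, a single count, against 0 in the others. P11 control replicate 1 held 52.47 CPM of Nr4a2 against 27.67 to 31.64, P11 control replicate 3 held 1050 CPM of Slc6a6 against 875.3 to 904.4, and P11 control replicate 4 held 29.75 CPM of Srebf1 against 54.14 to 58.82. Malat1 reached 13010 CPM in P11 control replicate 4 against 9578 to 9777, and Ciart 1.266 CPM in P11 control replicate 3 against 0.

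P11 mutant replicate 1 stood apart in Thbs1 (468.3 CPM against 412.6 to 416.3), Pttg1 (42.26 against 49.95 to 50.59) and Arl6ip1 (2251 against 2327 to 2336). Arl6ip1 was also low in P29 mutant replicate 4, at 4453 CPM against 4617 to 4631. P11 mutant replicate 4 was high in Hbb-bs (14993 CPM against 13565 to 13630) and Hbb-bt (2490 against 2256 to 2280). P29 control replicate 2 held 1070 CPM of Sag against 1216 to 1228, 182.5 CPM of Ddx3y against 152.7 to 155.5, and 31.93% of reads aligned to several places against 31.02% to 31.09%. In P29 mutant replicate 2 the 10 most abundant genes took 24.47% of counts, against 23.33% to 23.5% in the others.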

How the results depend on the processing

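The 323 interaction calls became 339 with median-of-ratios scaling, 429 in DESeq2, 233 in voom with quality weights, 324 without a filter, 334 with the stricter filter, 295 with the 16 libraries alone and 233 to 421 on leaving out 1 library (lowest without P29 control replicate 4, highest without P11 control replicate 4). Same-numbered libraries of different groups did not deviate together (correlations of -0.0332 to 0.0318 over 24 pairs, best match in 11 of 48 checks), so the numbers pair nothing, and the replicate block gave 321 calls. The Y-linked score left 31 interaction calls, 15 for genotype at P29, 5 at 3M and 676 for age in mutants. A test against a 1.5-fold change left 43 for the interaction, 31 for genotype at P29, 35 at P11 and 53 at 3M, and 1612 for age in mutants and 1768 in controls. Voom gave 563 genotype calls at P11. On leaving out 1 library genotype calls ran from 278 to 371 at P29, 647 to 985 at P11 and 239 to 295 at 3M, and age calls from 3509 to 3985 in mutants and 3575 to 3959 in controls. Of 57 called genes refitted under each alternative but the 1.5-fold test and the autosomal set, which were run on counts of calls alone, 17 kept the call throughout, none of the 57 lost it on leaving out 1 library and no value changed sign. The 40 losses came from the Y-linked score or voom, and the cause was not tested. Mkks, Ahi1 and Itgb5, outside the 57, lost their calls without single libraries. The 57 were named largely for a small interaction p, so their stability does not extend to the other calls. Of all 323 calls as few as 226 were kept on leaving out 1 library. Genes near 3 counts per library are limited by depth, and with 4 libraries a group a small interaction can be missed.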
